A study of Mus musculus with 6 samples.

Results

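The list of 24 genes of S phase and 29 genes of G2/M phase, 53 of the 33696 features of the count tables, was followed in immune cells of mouse mammary tumours. They were taken by symbol from a list made with earlier results of these data known, by a rule that uses no measured value, and all 53 were found. The 24 S members serve DNA replication and the 29 G2/M members serve mitosis. Cells positive for CD45, the surface protein of white blood cells, were sorted from digested mammary tumours, and 1 single-cell library was made for each treatment label. The 5 libraries used carry the labels MRX, CTX, Combined, ctxd18t and combod18t; a library labelled VC was not analysed here. The labels do not spell these names out, the study's title names inhibition of the receptor MERTK together with cyclophosphamide, and d18 in the last 2 labels is read here as day 18. The protocol, the same text for every sample, states that mice of day 7 received treatment 3 h before harvest, and it gives the multiplexing barcodes of Combined, CTX, MRX and VC only. Strain, age, tumour model and the number of animals in a library are not given in the labels used here. Since each label has 1 library, no difference below has a replicate check, no test was made, and every interval (95%) covers counting error only.

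Cells that enter the cycle first load the MCM helicase on DNA and switch on nucleotide synthesis and replication genes, many of them under E2F factors. Later they switch on the genes of chromosome condensation, spindle and division, many of them through the CHR element, which the MuvB complex binds, often next to CCAAT boxes bound by NF-Y. Activated T cells and NK cells divide in this way after antigen or cytokine stimulation, whereas neutrophils no longer divide once mature.

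The promoters of the members are shown because the members below are grouped by phase. RefSeq windows of 300 bases (250 before to 50 after the start, GRCm38.p6) were found for 45 members, and were not matched for Mcm4, Gins2, Gmnn, Ccne2, Exo1, Tpx2, Aurkb and Dlgap5. Of the 26 matched G2/M members, 21 (80.8%) held a CHR match (TTTGAA or TTCGAA, either strand), against 21.1% of the 19 matched S members and 19.4% of the first windows of 27025 genes. A CHR match together with CCAAT, on either strand, stood in 18 of 26 G2/M windows (69.2%), 3 of 19 S windows (15.8%) and 7.70% of all. CCAAT, counted with or without a CHR match, stood at similar shares in both phases, with 73.1% of G2/M, 68.4% of S and 37.9% of all windows. An E2F match (TTTCCCGC, TTTGGCGC, TTTCGCGC or TTTGCCGC, either strand) stood in 7 of 19 S windows (36.8%), in Cdc6, Cdca7, Clspn, Dtl, Hells, Mcm5 and Mcm6, and in 1 of 26 G2/M windows, that of Cdk1, against 2.32% of all. The E2F words can overlap each other on the 2 strands, as in Mcm5, where 2 matches share bases. A match is a run of letters and not a measured binding site.

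Below are the windows of 2 S members, the helicase subunits Mcm6 and Mcm5, with the E2F matches in capitals, and of 3 G2/M members, with CHR and CCAAT matches in capitals: Top2a, topoisomerase II, which helps to call cycling cells here, Ccnb2, a mitotic cyclin and the lowest member of the Combined to CTX comparison in T-like cells, and Cdk1, its kinase, whose E2F match is left in lower case. They lie at chr1:128359656-128359955 (minus strand), chr8:75109259-75109558 (plus), chr11:99024140-99024439 (minus), chr9:70421505-70421804 (minus) and chr10:69352863-69353162 (minus) of GRCm38.p6, and are written 5′ to 3′ along the gene.
Mcm6: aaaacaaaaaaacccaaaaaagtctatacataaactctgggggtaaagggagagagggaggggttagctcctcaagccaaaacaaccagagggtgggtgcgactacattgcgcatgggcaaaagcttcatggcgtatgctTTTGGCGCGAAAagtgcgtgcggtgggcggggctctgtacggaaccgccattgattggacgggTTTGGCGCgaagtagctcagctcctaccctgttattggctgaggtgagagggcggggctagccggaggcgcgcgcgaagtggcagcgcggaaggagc
Mcm5: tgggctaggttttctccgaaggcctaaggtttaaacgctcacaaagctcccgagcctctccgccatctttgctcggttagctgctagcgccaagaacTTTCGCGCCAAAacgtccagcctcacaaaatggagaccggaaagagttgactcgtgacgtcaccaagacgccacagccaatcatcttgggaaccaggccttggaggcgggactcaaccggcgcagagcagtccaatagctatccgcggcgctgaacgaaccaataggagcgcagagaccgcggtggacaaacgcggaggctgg
Top2a: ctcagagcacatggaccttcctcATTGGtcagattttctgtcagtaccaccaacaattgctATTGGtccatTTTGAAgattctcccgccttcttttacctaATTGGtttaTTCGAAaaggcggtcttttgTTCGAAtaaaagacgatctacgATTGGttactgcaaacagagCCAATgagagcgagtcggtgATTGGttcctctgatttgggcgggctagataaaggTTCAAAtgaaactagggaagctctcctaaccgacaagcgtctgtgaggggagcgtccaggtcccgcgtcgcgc
Ccnb2: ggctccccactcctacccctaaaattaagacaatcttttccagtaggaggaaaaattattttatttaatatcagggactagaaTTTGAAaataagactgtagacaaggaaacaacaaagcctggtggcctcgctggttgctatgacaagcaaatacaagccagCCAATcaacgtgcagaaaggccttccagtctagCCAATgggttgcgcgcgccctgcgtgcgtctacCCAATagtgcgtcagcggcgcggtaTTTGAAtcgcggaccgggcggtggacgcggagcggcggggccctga
Cdk1: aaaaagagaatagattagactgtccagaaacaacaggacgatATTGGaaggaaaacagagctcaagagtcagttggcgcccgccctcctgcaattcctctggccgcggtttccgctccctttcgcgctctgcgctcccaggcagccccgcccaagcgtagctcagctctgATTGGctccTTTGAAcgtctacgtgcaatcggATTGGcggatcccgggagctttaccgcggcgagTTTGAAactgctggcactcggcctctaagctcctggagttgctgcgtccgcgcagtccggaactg

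**Figure D1:**
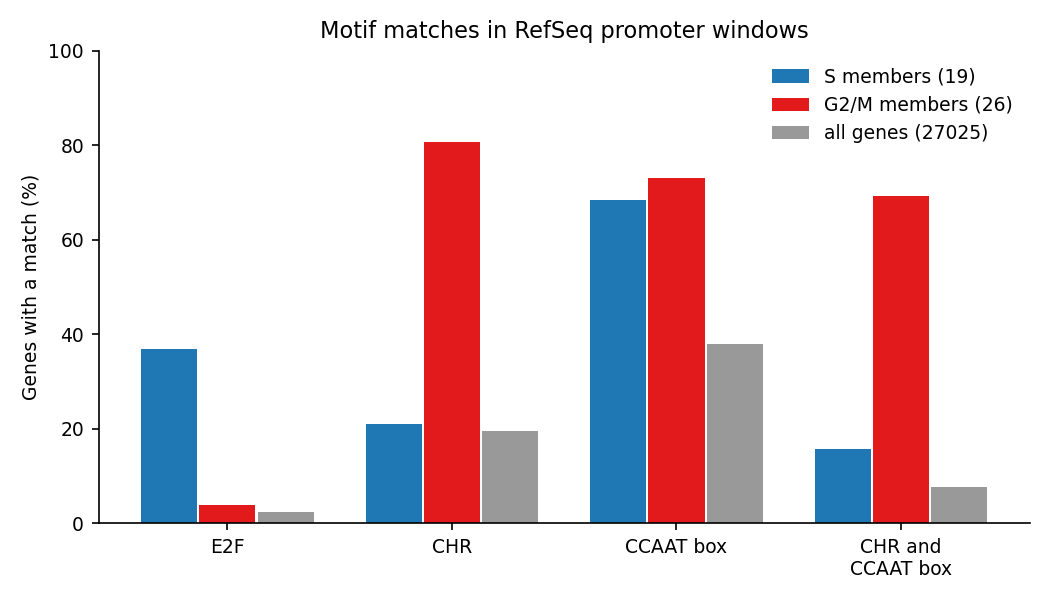
Percent of genes (y axis) whose RefSeq promoter window holds each motif (x axis), for 19 S members (blue), 26 G2/M members (red) and 27025 genes (grey). E2F matches are most frequent among S members (36.8%), and CHR matches among G2/M members (80.8%).

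After filters 25653 cells of the 5 libraries remained, from 3845 in ctxd18t to 8506 in CTX, with median depths of 6239 (MRX) to 8940 (ctxd18t) unique transcripts (UMIs) per cell. Clusters were made without the cell cycle genes and named from marker lists. All 13 T markers were seen in at least 10% of T-like cells, all 15 monocyte and macrophage markers in theirs, and 8 of 10 NK markers in NK-like cells. T-like cells made up 19.9% (CTX) to 67.1% (combod18t) of a library, so a value over all cells of a library also carries its mix of types. Barcodes were shared by CTX and combod18t (34) and by Combined and ctxd18t (21), and by no other pair of libraries.

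A cell is called cycling here when it holds at least 2 UMIs of Mki67 and Top2a together, after each cell was thinned to 2000 UMIs. Mki67 encodes the Ki-67 protein that coats mitotic chromosomes. Cycling T-like cells were most frequent in CTX and Combined. They were 179 of 1805 in MRX (9.92%, 8.58% to 11.4%), 385 of 1673 in CTX (23.0%, 21.0% to 25.1%) and 184 of 939 in Combined (19.6%, 17.1% to 22.3%). At day 18 they were 135 of 1233 in ctxd18t (10.9%, 9.26% to 12.8%) and 101 of 2543 in combod18t (3.97%, 3.25% to 4.81%). The combod18t share is the lowest of the 5, and its interval meets none of the others. Without thinning the shares were 17.9%, 33.4%, 31.03%, 28.3% and 13.7% in the same order, since deeper cells yield more UMIs of any gene.

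Within T-like cells the cycling share followed the cluster. Cluster 5, CD8-like and led by the granzyme genes Gzmk and Gzmb, held the most in CTX with 41.5%, against 13.1% in MRX, 30.7% in Combined, 22.4% in ctxd18t and 19.2% in combod18t. Cluster 10, regulatory T-like and led by Il1rl1 and Foxp3, had 16.2%, 36.9%, 26.9%, 11.7% and 10.5% in that order. Cluster 9, led by Tnfsf8 and Cd40lg, was given no subtype, since gamma-delta T markers scored highest (0.799) with CD4 close (0.717), and Cd4 was seen in 77.7% but Trdc, a gamma-delta receptor gene, in 11.1% of its cells. Its shares were 13.5%, 26.5%, 21.7%, 7.50% and 2.91%. Cluster 13, CD8-like with Pdcd1 and Cxcr6, had 32.5% in CTX, 14.2% in ctxd18t and 7.66% in combod18t, while MRX gave 4 of 36 cells and Combined 2 of 10. The clusters that carry Lef1 or Dapl1, genes of resting T cells, stayed low in every library: 0.763% to 2.88% in CD4-like cluster 4 and 1.66% to 3.81% in CD8-like cluster 6. So the 3 clusters with over 30 cells in every library and the highest shares all had their highest share in CTX.

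NK-like cells resembled T-like cells in the first 3 libraries. Cycling cells were 8.82% in MRX (57 of 646), 18.3% in CTX (112 of 611) and 18.98% in Combined (178 of 938). At day 18 they rested on 5 of 107 cells in ctxd18t (4.67%, 1.53% to 10.6%) and 8 of 103 in combod18t (7.77%, 3.41% to 14.7%), whose intervals overlap.

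**Figure D2:**
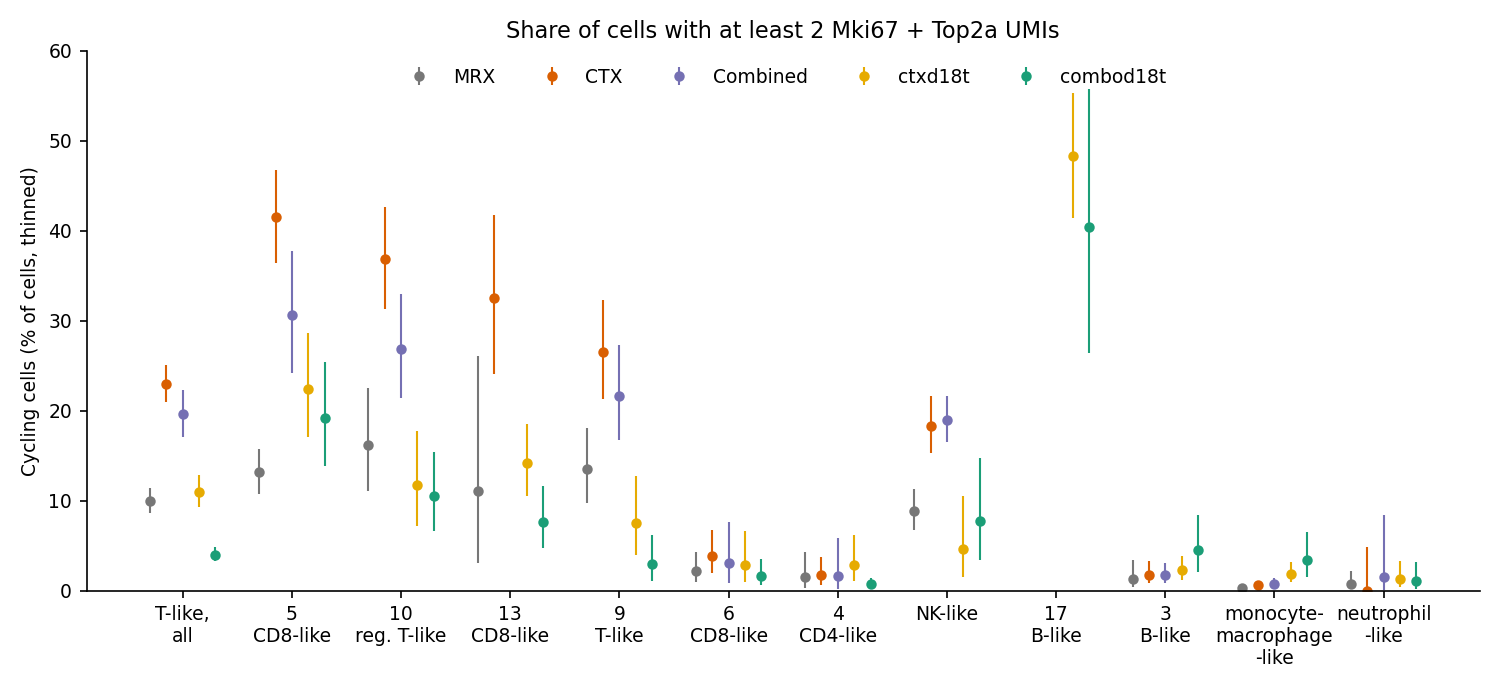
Percent of cells called cycling (y axis, cells thinned to 2000 UMIs) in each cell class or cluster (x axis), with 1 point per library and exact 95% intervals for counting error; groups under 30 cells are left out. CTX and Combined stand above MRX in T-like and NK-like cells, and cluster 17, B-like, is the highest at day 18 (48.3% in ctxd18t).

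The other members followed this call, which uses only Mki67 and Top2a. Of the remaining 51 members, 50 were higher in cycling than in other T-like cells in all 5 libraries, and 48 were at least 1 higher (log2 ratio of CPM + 1; CPM is a gene's share of all counts scaled to 1000000) in all 5. Of the 47 with at least 100 thinned counts, 45 reached 1 in all 5 libraries, against 3.25% of 8988 genes with that many counts. The G2/M members had a median log2 ratio of 4.75 and the S members of 2.66. Birc5, the survivin subunit of the chromosomal passenger complex, was the highest with a median over libraries of 6.43, and among S members Rrm2, the inducible subunit of ribonucleotide reductase, with 4.96. The lowest were Cenpa, the centromeric histone, with 1.01, and Mcm4, a helicase subunit, with 1.22. Aurka, a spindle pole kinase of few counts, ran from -0.90 to 3.08 and was the member not higher in every library. Cenpa, Mcm4 and Pcna, the replication clamp (1.94), thus differed less between cycling and other T-like cells than most members did. Chaf1b (1.89) and Mcm6 (1.90) were also below Pcna.

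**Figure D3:**
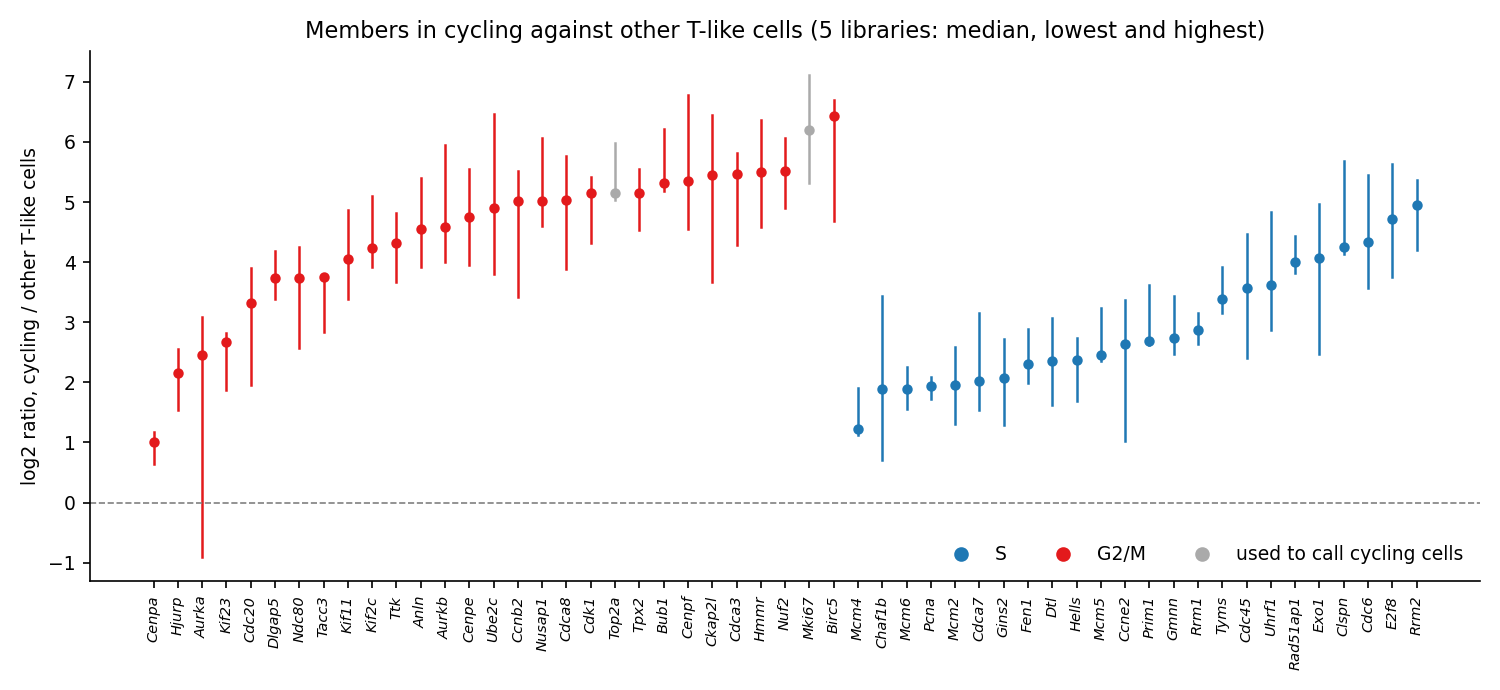
Log2 ratio of CPM + 1 of each member (x axis) in cycling against other T-like cells; the point is the median and the line the lowest to highest of 5 libraries, with the 2 genes that make the call in grey. G2/M members reach 6.43 (Birc5), and Cenpa and Mcm4 are the lowest of their phase.

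In levels, the summed S members of T-like cells stood at 2058 CPM in CTX and 2020 in Combined, and at 1157 (MRX), 1194 (ctxd18t) and 714 (combod18t). The summed G2/M members stood at 2903 and 2367 CPM in CTX and Combined, and at 1628, 1690 and 875 CPM in the other libraries. CTX and Combined were high for both sums and combod18t was low for both.

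A set of 10 genes of known role was read one by one. In the order MRX, CTX, Combined, ctxd18t, combod18t, Mki67 stood at 293, 472, 400.3, 313 and 160.1 CPM. In that order Top2a stood at 339.5, 621, 504, 321.5 and 158 CPM. Both were highest in CTX and lowest in combod18t. Rrm2 gave 65.8, 169, 181, 76.4 and 31.3 CPM. Pcna was flatter, with 193, 318, 349, 172 and 153 CPM. These 2 S members were highest in Combined. Mcm5, the helicase subunit shown above, gave 32.6, 65.5, 68.9, 28.1 and 15.2 CPM, and Uhrf1, which keeps DNA methylation through replication, 32.7, 74.0, 76.5, 35.2 and 15.4 CPM. Both S members were slightly above CTX in Combined. Cdk1, the mitotic kinase, gave 32.1, 78.3, 69.9, 29.5 and 12.0 CPM. Birc5 gave 72.6, 173, 136, 61.8 and 26.6 CPM. The G2/M genes Cdk1 and Birc5 were lower in Combined than in CTX. Ccnb2 gave 36.7, 72.5, 43.7, 27.2 and 10.7 CPM, the largest gap between CTX and Combined among these 10 genes as a ratio, though not in CPM. Aurkb, the kinase of the passenger complex, gave 13.8, 29.4, 29.5, 12.96 and 6.04 CPM, level between those 2 libraries.

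CTX and Combined were each set against MRX, which both comparisons share. In T-like cells the S sum was 0.83 higher in CTX (log2 ratio; 0.80 to 0.86) and 0.80 higher in Combined (0.77 to 0.84), and the G2/M sum was 0.83 (0.81 to 0.86) and 0.54 (0.51 to 0.57) higher. All 22 S and 26 G2/M members that passed the filter (at least 100 counts over both libraries and 20 CPM in 1) were higher in CTX, against 48.4% of 6385 genes, and 7 of each phase were at least 1 higher, against 1.74%. In Combined, all 22 S and 25 G2/M members that passed were higher, against 58.4% of genes, with 7 S and 3 G2/M members at least 1 higher, against 1.57%. A member can pass this filter through its higher library, so these counts do not describe all 53.

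NK-like cells showed the same direction. The S sum was 0.55 (0.50 to 0.60) higher in CTX than in MRX and 0.77 (0.72 to 0.81) higher in Combined, and the G2/M sum was 0.67 (0.62 to 0.71) and 0.45 (0.41 to 0.49) higher. All 20 S and 23 G2/M members that passed were higher in CTX (48.0% of genes), with 2 of each phase at least 1 higher (0.696%). In Combined 20 of 20 S and 20 of 21 G2/M members were higher (57.5%), with 4 S members and no G2/M member at least 1 higher (0.749%). Here too a member can pass the filter through its higher library, so these counts do not describe all 53 or support a direction. The protocol lists multiplexing barcodes for MRX, CTX and Combined together. The median depth of T-like cells was 4712.5, 5536 and 5576 UMIs.

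Combined and CTX differed more in the G2/M sum than in the S sum. In T-like cells the G2/M sum was 2367 CPM in Combined and 2903 in CTX, a log2 ratio of -0.29 (-0.32 to -0.27), while the S sum differed by -0.03 (-0.06 to 0.00). The share of cycling cells was 3.42 points lower in Combined (6.60 to 0.116 lower). Of 26 G2/M members that passed, 22 were lower in Combined, with a median of -0.31, and of 23 S members 13 were lower, with a median of -0.06. Over 6451 genes tested 32.0% were lower and the median was 0.09. No member differed by 1 or more, as did 0.496% of genes. Exo1, Ttk, Kif2c and Aurka did not pass, and a member can pass through its higher library, so these counts do not describe all 53.

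Of the 5 lowest members 4 were on the G2/M list. Ccnb2 was at -0.72 (-0.92 to -0.54), Cenpf, a kinetochore protein, at -0.58 (45.4 against 68.6 CPM), and Cenpe, a kinetochore motor, at -0.53 (58.1 against 84.3 CPM). Ube2c, the ubiquitin carrier of the anaphase-promoting complex, was at -0.49 (102 against 143 CPM) and Rad51ap1, a repair gene of the S list, at -0.47. The highest were Chaf1b, a subunit of the chromatin assembly factor, at 0.56 (22.8 against 15.1 CPM), and the mitotic kinesin Kif23 at 0.29. Chaf1b reached 20 CPM in Combined only, so it had to be higher there. Hjurp, the chaperone of CENP-A, followed at 0.22, Pcna at 0.14 (0.07 to 0.21) and Rrm2 at 0.10, the last with an interval that reaches 0. Scaling on the median of all genes instead of the total lowers every ratio here by 0.10 and puts the S sum at -0.13 and the G2/M sum at -0.40.

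Cluster 5, the CD8-like cells with granzyme genes, had the largest gap of the 3 clusters with the highest cycling shares (5, 10 and 9). Its G2/M sum was 2894 CPM in Combined and 4476 in CTX (log2 ratio -0.63, -0.68 to -0.58), its S sum 2854 and 2749 CPM (0.05, 0.00 to 0.11), and its cycling share 10.8 points lower (18.8 to 2.35 lower). Regulatory T-like cluster 10 differed by -0.19 in G2/M and -0.08 in S, with a cycling share 9.97 points lower (17.7 to 1.97 lower). Cluster 9 differed by -0.29 in G2/M and by -0.26 in S. The 2 phases thus separated in cluster 5 and moved alike in cluster 9; the difference between clusters was not tested. The clusters with few cycling cells went both ways in G2/M, with -1.06 in cluster 6 (412 against 858 CPM) and 0.54 in cluster 4 (593 against 407 CPM). With both libraries weighted to 1 common composition of T-like clusters, an alternative added after the data were seen, the cycling share is lower in Combined by a difference of -6.03 points.

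NK-like cells split the phases in opposite directions. The S sum was 1751 CPM in Combined against 1502 in CTX (0.22, 0.18 to 0.26), and the G2/M sum was 1739 against 2021 (-0.22, -0.25 to -0.18). The share of cycling cells differed by 0.646 points (-3.39 to 4.54). Of 20 S members that passed 18 were higher (63.1% of 6223 genes were), and of 24 G2/M members 21 were lower (36.9% of genes were). The highest were Uhrf1 (56.4 against 40.4 CPM, 0.47), Tyms, thymidylate synthase (84.0 against 60.7, 0.46), Mcm5 (70.4 against 51.8, 0.44), Pcna (338 against 251, 0.43) and Mcm4 (136 against 107 CPM, 0.35). The lowest were Nusap1, a spindle-associated protein (60.2 against 96.0, -0.66), Cenpf (24.6 against 39.0, -0.64) and Ckap2l (-0.62). The microtubule-linked receptor Hmmr (-0.61) and Ube2c (47.0 against 71.8, -0.60) came next. The 5 highest are all S members and the 5 lowest all G2/M members. Of the lowest, Ckap2l (16.05 against 25.14 CPM) and Hmmr (19.89 against 30.85 CPM) reached 20 CPM in CTX only. These had to be lower in Combined, so the counts of 18 and 21 do not describe all 53 members or support a direction. The G2/M sum was also lower in Combined in dendritic-like cells (341 against 491 CPM, -0.53, -0.68 to -0.38) and in B-like cells (580 against 771 CPM, -0.41, -0.50 to -0.32), with S at 0.02 and 0.04; the larger B-like cluster 3 alone gave 0.01 (-0.10 to 0.12). In cells thinned to 2000 UMIs the NK-like ratio of Mki67 turns to 0.02, that of Tpx2 to 0.12 and that of Cenpe to 0.22, each with an interval across 0.

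**Figure D4:**
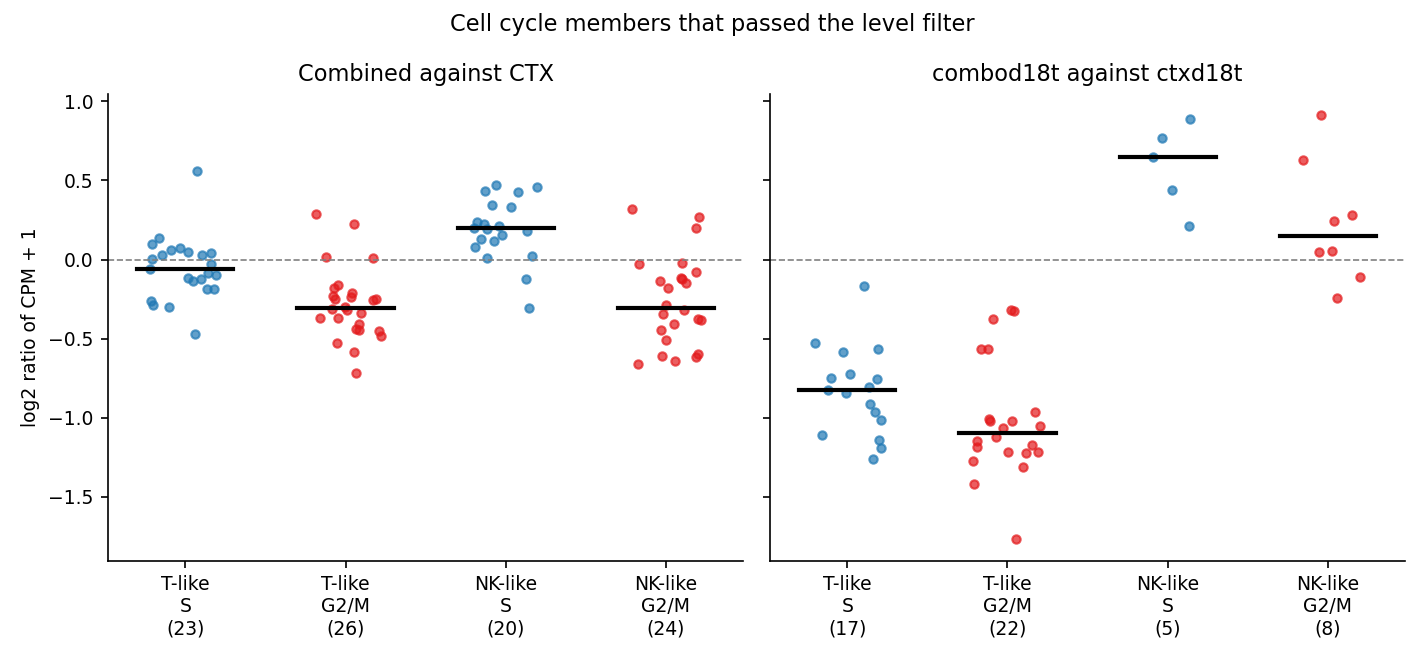
Log2 ratio of CPM + 1 (y axis) of each member that passed the filter, by class and phase (x axis, number of members in brackets), in the 2 pairs of libraries; bars are medians. In Combined against CTX the G2/M members centre at -0.31 in both classes, and at day 18 all T-like members lie below 0.

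The balance of the phases can be read as the S part of all S and G2/M counts, which does not use the total of a library. It covers cycling and other cells of a class together. In B-like cluster 3, with few cycling cells, it was 50.7% (ctxd18t) to 54.0% (Combined), against 37.6% (ctxd18t) and 37.45% (combod18t) in cluster 17. The S part can thus be high in a class with few cycling cells. In T-like cells it was 41.5% in MRX, 41.5% in CTX and 46.0% in Combined (45.5% to 46.6%). In cluster 5 it was 39.4%, 38.1% and 49.7% (48.6% to 50.7%), and in NK-like cells 44.7%, 42.6% and 50.2% (49.6% to 50.7%). Combined was the highest of these 3 libraries in each. Cluster 10 (42.4% in CTX, 44.2% in Combined) and cluster 9 (42.8% and 43.3%) moved little. Inside cycling cells the S part was also higher in Combined than in CTX in these 3, with 35.7% in CTX and 40.0% in Combined for T-like cells, 34.4% and 42.6% for cluster 5, and 32.5% and 42.5% for NK-like cells. MRX had 29.2%, 28.9% and 32.0% there, the lowest of these 3 libraries in T-like cells and cluster 5, unlike its place over all cells. In NK-like cells its interval (29.2% to 34.95%) overlapped that of CTX (30.5% to 34.6%). The G2/M counts of cycling cells include the Mki67 and Top2a UMIs that make the call. Without those 2 genes, cycling NK-like cells held a mean of 5.93 S and 6.42 G2/M UMIs in MRX, and 6.19 and 7.39 in CTX. The S part of cycling B-like cells, 19 in CTX and 15 in Combined, was 30.5% and 26.6%, with intervals that overlap. At day 18 the S part over all cells was 35.7% in ctxd18t and 37.7% in combod18t for cluster 5, with intervals that just overlap. It was higher in combod18t over T-like cells (44.9% against 41.4%) and NK-like cells (41.5% against 30.97%). It was lower in cluster 10 (36.4% against 41.4%) and cluster 9 (39.4% against 45.9%), and these 4 pairs of intervals lie apart. Inside cycling T-like cells it was 30.8% in combod18t and 33.2% in ctxd18t, with intervals that overlap. Inside cycling NK-like cells, 8 and 5, it was 35.3% and 12.1%.

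**Figure D5:**
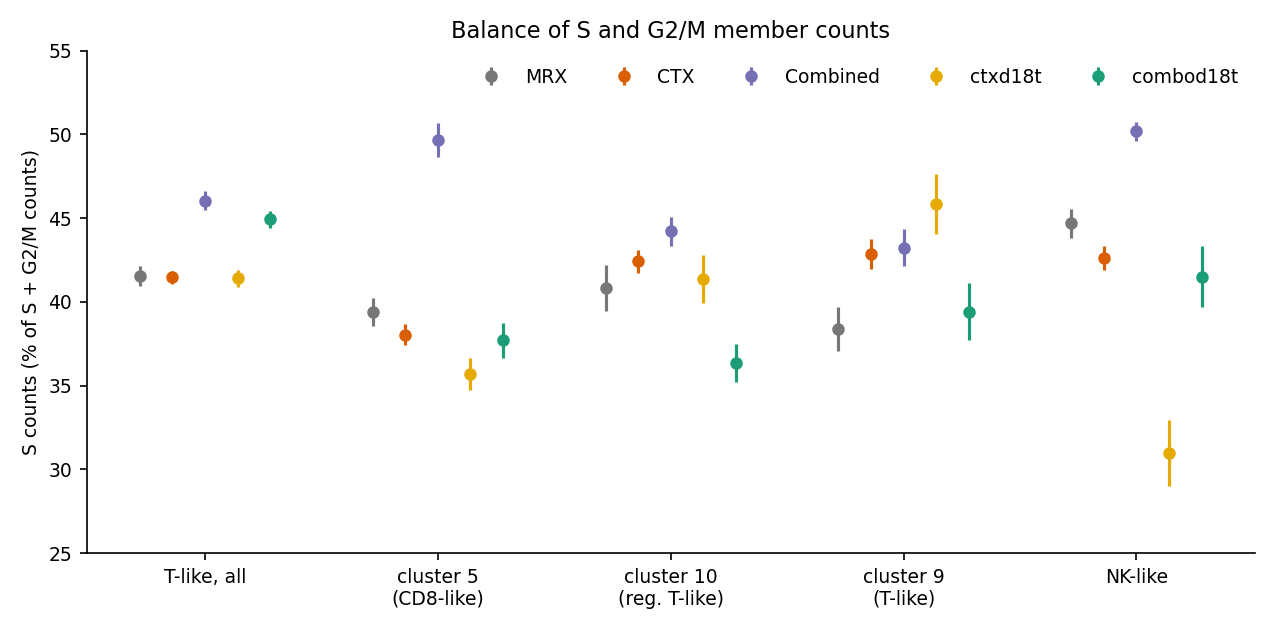
S counts as a percent of S plus G2/M counts (y axis, drawn from 25 to 55) by class or cluster (x axis) and library, with exact 95% intervals for counting error. Combined is the highest of the first 3 libraries in cluster 5 (49.7%) and in NK-like cells (50.2%).

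At day 18 combod18t was lower than ctxd18t for both phases in T-like cells. The S sum was 714 against 1194 CPM (log2 ratio -0.74, -0.78 to -0.71), the G2/M sum 875 against 1690 CPM (-0.95, -0.98 to -0.92), and the cycling share 6.98 points lower (8.97 to 5.15 lower). All 17 S and 22 G2/M members that passed were lower, with medians of -0.82 and -1.09, where 54.1% of 6712 genes were lower with a median of -0.04. At least 1 lower were 5 S and 16 G2/M members, against 2.68% of genes. Of those that passed, 5 S and 10 G2/M members reached 20 CPM in ctxd18t only, Hmmr, Dlgap5 and Ccnb2 among them, so they had to be lower in combod18t and these counts do not describe all 53 members or support a direction. The 14 members that did not pass were Gins2, Cdca7, Rad51ap1, Cdc45, Exo1, Chaf1b, E2f8, Nuf2, Aurkb, Cdc20, Ttk, Kif2c, Aurka and Anln. The median depth of T-like cells was 6891 UMIs in combod18t and 7779.5 in ctxd18t.

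The mix of T-like cells also differed. CD4-like cluster 4, with few cycling cells, held 1333 of 2589 T-like cells in combod18t and 211 of 1248 in ctxd18t. With the same mix of clusters in both libraries, an alternative added after the data were seen, the cycling share was 5.09% in combod18t and 8.04% in ctxd18t, the S ratio -0.43 and the G2/M ratio -0.55. Within clusters the G2/M ratio ran from -1.76 in cluster 4 (277 against 941 CPM) through -0.72 in cluster 6 and -0.64 in cluster 13 to -0.22 in cluster 5, -0.17 in cluster 10 and -0.13 in cluster 9. Every one of these 6 clusters was lower in combod18t. The cycling share differed by -3.26 points in cluster 5 (-11.1 to 4.70) and by -1.25 points in cluster 10 (-8.06 to 5.11), intervals that include 0. It differed by -6.53 points in cluster 13 (-11.6 to -1.37), -4.59 in cluster 9 (-9.97 to -0.0234) and -2.12 in cluster 4 (-5.41 to -0.441), intervals below 0, and by -1.25 in cluster 6 (-5.07 to 1.28).

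Hmmr stood at 8.26 CPM in combod18t and 30.5 in ctxd18t (-1.77), Tpx2, a spindle assembly factor, at 20.6 and 56.8 (-1.42), and Dlgap5, a spindle microtubule protein, at 9.13 and 24.2 (-1.31). Ccnb2 followed with -1.27, and the S member Rrm2 with -1.26. The members nearest to 0 were Pcna (-0.17, -0.25 to -0.09), Hjurp (-0.32), Kif23 (-0.32), Cenpa (-0.38) and Rrm1 (-0.53), the large subunit of ribonucleotide reductase. Their median log2 ratios between cycling and other T-like cells ran from 1.01 (Cenpa) to 2.88 (Rrm1).

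NK-like cells at day 18, 111 and 104 cells, went the other way for S. The S sum was 1091 CPM in combod18t and 659 in ctxd18t (0.73, 0.59 to 0.87) and the G2/M sum 1538 and 1469 (0.07, -0.04 to 0.17). Only 5 S and 8 G2/M members passed, and all 5 and 6 of the 8 were higher, against 55.6% of 3985 genes. Highest were Kif23 (0.91), Rrm1 (103 against 55.2 CPM, 0.89), Mcm4 (0.77), Rrm2 (0.64) and Kif11, a spindle motor (0.63, but -0.20 in thinned cells). Lowest were Cenpa (-0.25) and Birc5 (-0.11), both with intervals across 0, then Nusap1 (0.05), Cenpe (0.05) and Mcm6 (0.21).

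Genes around the members were read from 6 wider lists. In Combined against CTX none of their genes that passed differed by 1 or more in T-like cells. Of the spindle checkpoint, kinetochore and condensin list 20 of 22 were lower (median -0.22), while the licensing and replication list had 13 of 20 lower (median -0.08), where 32.0% of all genes were lower. At day 18, 16 of 17 of each of these 2 lists were lower in combod18t, 8 and 4 of them by at least 1, where 54.1% of all genes were lower and 2.68% by at least 1. Of the 17 on each list, 7 and 6 reached 20 CPM in ctxd18t only, and so had to be lower, among them Ncapg, Ect2, Bub1b, Spc24, Tk1 and Rfc4. Named from them are Ncapg, a condensin subunit (-1.38), Prc1, which bundles the central spindle (-1.18), Ect2 (-1.14), Bub1b (-1.10) and Spc24 (-1.09). From replication come Tk1, thymidine kinase (-1.55), Rfc4 (-1.22), Lig1, DNA ligase (-1.18), and Dut (-1.06). Of the cyclin and kinase list 8 of 10 were lower, 5 of which reached 20 CPM in ctxd18t only. Among these 5 are Ccna2 (-1.11) and Cks1b (-1.17).

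Cyclin D1 stood apart. In T-like cells Ccnd1 was at 32.8 CPM in ctxd18t, and at 3.72 (MRX), 6.38 (CTX), 4.08 (Combined) and 4.34 (combod18t) elsewhere, so ctxd18t alone was high (combod18t to ctxd18t -2.66), and the gene passed the filter through that library. In epithelial-like cells Ccnd1 was at 2186 CPM in ctxd18t, 2204 in CTX, 2025 in MRX, 1161 in combod18t and 354 in Combined. These cells were most numerous in ctxd18t (163, against 74 in CTX, 49 in combod18t, 15 in MRX and 11 in Combined). In ctxd18t Ccnd1 was at 67.0 CPM in monocyte-macrophage-like but 5.92 in NK-like cells. The part of RNA from other cells in the T-like value was not tested. Myc, a driver of cell growth, was at 32.9 CPM in ctxd18t and 10.7 in combod18t (-1.53), and at 85.8 and 28.8 CPM in NK-like cells (-1.54). In T-like cells Myc reached 20 CPM in ctxd18t only, so it had to be lower in combod18t. Among the inhibitors 5 of 10 were higher and 5 lower. Tob1, an antiproliferative gene of resting T cells, was at 107 CPM in combod18t and 48.2 in ctxd18t (1.13, where 1.73% of genes were at least 1 higher). Cdkn2c, an inhibitor of CDK4 and CDK6, was at 15.2 and 32.2 CPM (-1.03). It reached 20 CPM in ctxd18t only and so had to be lower in combod18t. In the remaining lists, the E2F and MuvB factors had 4 of 6 lower, Myc among them (median -0.31), near the 54.1% of all genes. The chromatin and tubulin genes of proliferating cells had 10 of 10 lower (median -0.65).

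Monocyte-macrophage-like cells held few cycling cells. They were 4 of 1356 in MRX (0.295%), 25 of 4265 in CTX (0.586%), 8 of 1149 in Combined (0.696%), 13 of 698 in ctxd18t (1.86%, 0.995% to 3.16%) and 8 of 236 in combod18t (3.39%, 1.47% to 6.57%). Neutrophil-like cells, which are not expected to divide, gave 0.739% (3 of 406), 0 of 75 (which allows a share of up to 4% by 3 counts of the total, and 4.80% by the exact interval), 1.56% (1 of 64), 1.31% (4 of 306) and 1.09% (3 of 275), at median depths of 2844 to 4260 UMIs against 8089 to 12763. The monocyte-macrophage-like shares of MRX, CTX and Combined lie within the range of these neutrophil-like shares, and at day 18 the intervals of the 2 classes overlap, but both day 18 monocyte-macrophage-like shares are above every neutrophil-like share. These few cells cannot be set apart from background by the shares alone. Besides Mki67 and Top2a, the cycling cells held a mean of 1.75 (MRX), 3.32 (CTX), 6.12 (Combined), 3.23 (ctxd18t) and 7.50 (combod18t) G2/M UMIs, against 6.76 to 8.13 in cycling T-like cells of the 5 libraries. Combined and CTX differed by 0.110 points (-0.331 to 0.808) and the day 18 pair by 1.53 points (-0.582 to 4.78).

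Much of their member counts came from the clamp and the centromeric histone. Pcna and Cenpa together gave 51.1%, 40.6% and 40.5% of all member counts in MRX, CTX and Combined, and 36.6% (ctxd18t) and 31.03% (combod18t) at day 18, against 10.8% to 18.6% in T-like cells. In pDC-like cells they gave 49.9% and 52.7% in MRX and CTX and 18.1% to 25.8% in the other libraries, and in neutrophil-like cells 12.4% (ctxd18t) to 36.1% (CTX), so these classes met the T-like range in some libraries. In 3 of these groups few barcodes held most G2/M counts: 3 of 74 pDC-like cells held 461 of 601 in ctxd18t, 3 of 56 held 546 of 851 in combod18t, and 3 of 337 neutrophil-like cells held 721 of 927 in ctxd18t. Cenpa stood at 176, 112, 98.9, 134 and 135 CPM and Pcna at 84.7, 90.3, 99.9, 83.5 and 86.1 CPM. Rrm2 stayed between 1.85 and 4.84 CPM. Mki67 stood at 11.5, 15.6, 20.7, 34.9 and 61.2 CPM and Top2a at 13.5, 14.8, 14.2, 21.7 and 35.8 CPM, both highest in combod18t.

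Between Combined and CTX 3 S and 2 G2/M members passed: Pcna (0.14), Mcm4 (0.09), Fen1, a flap endonuclease (0.02), Mki67 (0.38) and Cenpa (-0.18). Mki67 reached 20 CPM in Combined only (20.7 against 15.6 CPM), so it had to be higher there. The sums differed by 0.02 (-0.03 to 0.08) for S and -0.07 (-0.13 to -0.01) for G2/M, the latter turning to 0.08 as a mean over cells and to 0.20 with the same mix of clusters. At day 18, 4 S and 3 G2/M members passed, led by Mki67 (0.80, 0.55 to 1.07) and Top2a (0.70, 0.38 to 1.06), with Fen1 at 0.22 and Pcna (0.04), Rrm1 (0.04), Cenpa (0.01) and Mcm4 (-0.01) near 0. The G2/M sum was 434 against 326 CPM (0.41, 0.32 to 0.51) and the S sum 279 against 268 (0.05, -0.06 to 0.17). In combod18t 3 of 267 cells held 373 of the 1347 G2/M counts, and with predicted doublets kept the G2/M ratio was -0.01. In unthinned counts, which are deeper in cycling cells (median 12910 against 9800 UMIs), 7 of the 58 cycling cells over all libraries (12.1%) held at least 2 UMIs of Cd3e, Cd3d, Cd3g and Trac, genes of the T cell receptor complex, against 1.46% of the others. In cells thinned to 2000 UMIs 1 of the 58 did, a cell of CTX.

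Plasmacytoid dendritic-like (pDC-like) cells had 9 cycling barcodes of 160 in Combined (5.62%), 3 of 74 in ctxd18t, 3 of 55 in combod18t, and none of 266 in MRX or 163 in CTX. All 15 cycling barcodes held at least 2 UMIs of those T cell receptor genes, with a median of 39, against 10.1% of the 703 other pDC-like barcodes. Their median depth was 22860 UMIs against 8931. At finer clustering all 15 fell in 1 cluster that also took 69 of the 703.

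The same unthinned check gave 9 of 31 cycling dendritic-like cells (29.03%, others 8.98%), 9 of 185 B-like cells (4.86%, others 1.28%) and 84 of 360 NK-like cells (23.3%, others 21.7%). By library the NK-like shares went both ways, with cycling cells lower in MRX (17.5% against 19.9%) and CTX (23.2% against 28.3%) and higher in Combined (23.6% against 19.2%), ctxd18t (3 of 5 cells against 25.5%) and combod18t (3 of 8 against 14.7%). In neutrophil-like cells of ctxd18t the G2/M sum was 540 CPM, the highest of that class, but 3 of 337 cells held 721 of the 927 counts, and without them it was 127 CPM.

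Among B-like cells cluster 17 had the highest cycling shares. Cluster 17, led by Jchain, Ighg2b, Ighg2c and Rgs13, scored 0.942 for B and 0.832 for plasma cell markers, at a UMI ratio of 1.49, just under the 1.5 at which it would have been left out as mixed. It held 210 cells in ctxd18t and 49 in combod18t, and 7 to 11 in the other libraries. Cycling cells were 101 of 209 in ctxd18t (48.3%, 41.4% to 55.3%) and 19 of 47 in combod18t (40.4%, 26.4% to 55.7%). Its S sum was 2906 and 2456 CPM and its G2/M sum 4817 and 4101 CPM, the highest of any class with over 30 cells at day 18. These 101 cells made up 30.5% of all cycling cells of ctxd18t. The larger B-like cluster 3, led by Ighd, had 1.33% to 4.50% cycling cells in the 5 libraries.

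An epithelial-like cluster passed the CD45 sort, with Ptprc, the gene of CD45, seen in 21.5% of its cells against 99.5% of T-like cells. It held 38 cycling of 93 cells in ctxd18t (40.9%, 30.8% to 51.5%), 9 of 44 in CTX and 5 of 29 in combod18t. Its G2/M sum in ctxd18t was 3272 CPM, and the S part of its counts, 26.5%, was lower than the 41.4% of T-like cells there. In combod18t it was 46.0%.

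Over all kept cells the cycling share ranged from 4.61% in combod18t and 5.19% in MRX through 6.95% in CTX to 9.06% in ctxd18t and 9.60% in Combined. It was higher in Combined than in CTX (by 2.65 points, 1.62 to 3.72) and lower in T-like cells. T-like and NK-like cells made up 22.4% and 22.2% of Combined and 19.9% and 7.28% of CTX. T-like cells held 45.8% of the cycling cells of Combined and 66.5% of those of CTX. Over 72 points of clusters and libraries with at least 50 cells, the S and G2/M sums had correlations of 0.94 (Pearson and Spearman alike), as a description of points that share libraries and depth.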

How the data were processed

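UMI counts per gene and cell were deposited as whole-number counts, which per the labels the authors produced in Cell Ranger 9.0.1. The submitters' processing notes also name Seurat 5.2.0 and GRCm39; the annotation is not given in the sources used here. The members and all lists were chosen with earlier results of these data known.

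Cells with at least 200 genes and at most 15% mitochondrial counts were kept. Scrublet (scanpy 1.11.5, expected rate 0.06) marked under 0.5% of barcodes, so the top 5% by score were removed, ties kept, which left out 160 to 392 cells per library. Of the removed cells with at least 2000 UMIs, 6.84% (MRX), 18.0% (CTX), 19% (Combined), 20.1% (ctxd18t) and 5% (combod18t) were cycling. The shares of kept cells were 5.19%, 6.95%, 9.60%, 9.06% and 4.61%, so the removal took cycling cells unequally between libraries. Log counts per 10000, 2000 variable genes without cell cycle genes, 30 components, 15 neighbours and Leiden (leidenalg 0.10.2, resolution 1) gave 19 clusters over all libraries together, without integration. A cluster took the class whose 5 best markers scored highest and needed 3 markers in at least 10% of cells. Clusters 11 and 16 were left out as mixed: a second class reached 0.5 or more of the top score and their UMI ratio was over 1.5. The scoring, and pooling dendritic subtypes, were set after seeing the data.

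Counts were summed per class and library and scaled to 1000000 counts (CPM). Log2 ratios are of CPM + 1, which shrinks low genes, and their intervals are exact conditional binomial ones on the counts. Shares have Clopper-Pearson and differences Newcombe intervals. The 3' counts are not scaled for length. Cells under 2000 UMIs were left out of thinned shares. The 10 genes always given in T-like cells were Mki67, Top2a, Pcna, Mcm5, Rrm2, Cdk1, Birc5, Ccnb2, Aurkb, Uhrf1, plus up to 5 highest and 5 lowest members per pair in T-like, NK-like and monocyte-macrophage-like cells, and wider-list genes with a ratio of at least 1 in size, at most 5 a list. The ratio step was tested on simulated counts. Alternatives were normalization, thinning, call rule, filters, clustering and doublets.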

Additional observations from a re-analysis of the deposited data

Results flagged for a closer look

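The 2 pairs, Combined against CTX and combod18t against ctxd18t, moved in opposite directions in 4 results whose counting intervals both leave out 0; with 1 library a label, the difference between the pairs was not tested. In monocyte-macrophage-like cells the G2/M sum had a log2 ratio of -0.0694 in the first pair and 0.413 in the second. The first turned to 0.0778 as a mean over cells, 0.000182 with doublets kept and 0.196 with the same cluster mix, and the second to -0.0137 with doublets kept. Over all kept cells the S sum had ratios of 0.572 and -0.291, and the G2/M sum 0.271 and -0.587. The cycling share over all kept cells differed by 2.65 points and by -4.44 points. Values over all cells also carry the mix of cell types, with T-like cells at 22.4% of Combined, 19.9% of CTX, 67.1% of combod18t and 32.5% of ctxd18t.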

How the results depend on the processing

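No paired analysis was possible because each label has 1 library. Leaving out a replicate and any test were not possible for the same reason, and all calls below are against counting intervals. In T-like cells the Combined to CTX cycling share stayed within its interval under every alternative run. The same cluster mix and the removal of clusters were chosen after seeing the data. The cause of each shift was not tested.

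With median-of-ratios scaling, the T-like S and G2/M ratios were -0.13 and -0.398 for Combined to CTX and -0.684 and -0.891 at day 18, and the monocyte-macrophage-like ones for Combined to CTX -0.0489 and -0.141. As a mean over cells, T-like G2/M was -0.326, and at day 18 S was -0.684 and G2/M -1.06; monocyte-macrophage-like S was 0.117 and G2/M turned to 0.0778, and day 18 S was 0.294. Thinned, T-like G2/M was -0.327, day 18 S -0.706 and G2/M -0.982, and monocyte-macrophage-like S 0.0884 and 0.346 at day 18. With the same cluster mix, T-like S was -0.112 and G2/M -0.367, and at day 18 S was -0.427, G2/M -0.546 and the share -2.95 points; monocyte-macrophage-like G2/M turned to 0.196 and was 0.3003 at day 18, and that of Combined to MRX turned to 0.0977. With doublets kept, day 18 T-like G2/M was -0.979, and monocyte-macrophage-like G2/M turned to 0.000182 and, at day 18, to -0.0137, with S at -0.248. The day 18 T-like share was -14.6 points without thinning, -9.09 at 4000 UMIs and -11.6 for at least 1 UMI. Monocyte-macrophage-like cells had a share difference of 1.36 points without thinning, G2/M of -0.00906 with cell cycle genes in the clustering and day 18 S of 0.314 with mixed clusters kept. Among single members 1066 values kept to the interval, 90 moved out of it and 4 reversed, all in thinned NK-like cells: Tpx2 0.12, Mki67 0.02002, Cenpe 0.22 and, at day 18, Kif11 -0.20.

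Low counts limit the NK-like cells at day 18 and the cycling shares of myeloid cells. Whether the day 18 libraries shared a run with the others is not given in the labels, so day and run cannot be told apart.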
